A study of Homo sapiens with 4 samples.

Results

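The genes described here are 10 components and target genes of the YAP-TEAD pathway in A549 cells, a human lung adenocarcinoma line. They were chosen by name: the coactivator genes YAP1 and WWTR1, the transcription factor gene TEAD1, the regulators AMOTL1, AMOTL2, LATS2 and AJUBA, and the target genes CTGF, CYR61 and ANKRD1. The choice was made because their RNA levels in the input libraries were lower after YTHDF2 knockdown, so those levels are given as a description and not as a finding. All 10 were found among the 28283 genes of the deposited expression table, where CTGF and CYR61 stand for the genes now called CCN2 and CCN1, and all 10 were among the 12268 genes kept because they reached an FPKM of 1 in the input of either condition. FPKM is the number of fragments per kilobase of transcript, scaled to the depth of the library, so levels can be set side by side between genes.

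The study used A549 cells grown in RPMI medium with 10% fetal bovine serum. Cells labelled shNC carried the control vector, and cells labelled shY2-2 carried a lentiviral construct for an shRNA against YTHDF2, a cytoplasmic reader protein of N6-methyladenosine (m6A) on mRNA. Both were stably infected cultures, and the sources used here do not say whether either was grown from 1 clone. From each culture came 1 library of fragmented poly(A) RNA (input) and 1 of the fragments bound by an m6A antibody (IP), which makes 4 libraries. Differences between shNC and shY2-2 therefore have no replicates behind them, and none was tested.

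In the Hippo pathway, the kinases MST1 and MST2 activate the kinases LATS1 and LATS2, which phosphorylate the coactivators YAP and TAZ (the product of WWTR1) and hold them in the cytoplasm. When the kinases are inactive, YAP and TAZ enter the nucleus, bind the TEAD factors and switch on genes of growth and matrix contact, among them CTGF, CYR61 and ANKRD1. Some of the target genes, such as LATS2 and AMOTL2, encode inhibitors of YAP and TAZ, so the pathway holds a negative feedback.

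The TEAD factors recognise GGAATG, and the sequences below show where that motif stands in the promoters of the genes the description turns on. RefSeq promoter windows (GRCh38.p14, 250 bases before to 50 bases after a start site, 300 in all) were given for 8 of the 10 genes, as 11 windows. CYR61 and TEAD1 had no entry. GGAATG or its reverse complement CATTCC stood in 6 of the 11 windows, from 6 genes, and in 14.0% of the 35116 promoter windows of the genome. The longer forms GGAATGT and GGAATGC, searched on both strands, stood in 4 of the 11 windows and in 6.64% of all windows. AMOTL1 and WWTR1 had neither form in their windows. The CTGF window held 3 copies and the ANKRD1 window 2, and the second CTGF sequence below also holds the third copy in lower case. The windows of AMOTL2, AJUBA and ANKRD1 that hold the motif belong to start sites inside the gene as deposited. Capitals mark the motif, and each sequence runs 5′ to 3′ on the strand of the gene. A match is a description of the letters and not evidence of binding.
CTGF, chr6:131951524-131951553, - strand, motif 169 bases before the start site: ttttcagacggaGGAATGctgagtgtcaag
CTGF, chr6:131951459-131951488, - strand, 104 bases before: ggaaggtggggaGGAATGcgaggaatgtcc
ANKRD1, chr10:90921290-90921319, - strand, 220 bases before: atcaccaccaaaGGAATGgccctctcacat
ANKRD1, chr10:90921198-90921227, - strand, 128 bases before: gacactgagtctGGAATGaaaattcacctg
AMOTL2, chr3:134374499-134374528, - strand, 69 bases before: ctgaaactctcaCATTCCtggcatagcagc
LATS2, chr13:21061560-21061589, - strand, motif from base 10 of the transcript, in the 5′ UTR: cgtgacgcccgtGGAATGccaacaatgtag
AJUBA, chr14:22976884-22976913, - strand, 59 bases before: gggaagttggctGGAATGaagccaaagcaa
YAP1, chr11:102110273-102110302, + strand, 162 bases before: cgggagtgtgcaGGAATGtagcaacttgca

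The input level of YTHDF2 itself was 3.56 FPKM in shNC and 1.02 in shY2-2, which is 28.6% of the shNC level. All 7 epithelial and A549 markers were above an FPKM of 1 in both libraries, from 1.20 for EPCAM to 2044 for AKR1B10. Their summed level, 2817 in shNC and 2731 in shY2-2, was mostly AKR1B10 (1801 and 2044), an aldo-keto reductase, and 6 of the 7 were lower in shY2-2. Of 5 markers of leukocytes, endothelium and fibroblasts, 0 were above 1 in both libraries, their sum was 1.05 and 1.69, and CD3E, PTPRC, PECAM1 and CDH5 were between 0 and 0.0999. COL1A1 of fibroblasts was at 0.834 and 1.64. The lung lineage genes SFTPC and NAPSA stood between 0.0303 and 0.252 in both libraries. Among the epithelial genes the keratins KRT8, KRT18 and KRT19 were at 523, 388 and 25.9 in shNC and at 322, 281 and 12.9 in shY2-2. EPCAM, an epithelial adhesion protein, was at 2.02 and 1.20, CDH1 (E-cadherin) at 9.99 and 5.28, and AKR1C1 at 67.6 and 64.9. The part of these lower epithelial levels in the values below was not tested. The smallest steps of FPKM in genes with 1 transcript correspond to about 20700000 fragments in the shNC and 25800000 in the shY2-2 input library. These are bulk libraries, in which fewer cells with an RNA and less of it per cell cannot be told apart.

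The coactivators were expressed at unequal levels. WWTR1, the gene of TAZ (ENSG00000018408, chromosome 3, 149517235 to 149736714, - strand), had an FPKM of 29.1 in shNC and 13.5 in shY2-2. YAP1 (ENSG00000137693, chromosome 11, 102110461 to 102233423, + strand) had an FPKM of 10.9 in shNC and 8.07 in shY2-2. WWTR1 was thus the higher of the pair in both libraries, by 2.67 times in shNC and 1.67 times in shY2-2, and it held the highest level of the 10 genes in both. The sum of the pair was 40.1 in shNC and 21.6 in shY2-2. On the scale used for all differences here, log2 of (FPKM + 1) in shY2-2 over shNC, WWTR1 stood at -1.06 and YAP1 at -0.40. The WWTR1 difference lay at percentile 1.80 of the 12268 genes kept and that of YAP1 at percentile 16.6, the highest percentile of the 10.

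TEAD1 (ENSG00000187079, chromosome 11, 12674591 to 12944483, + strand), a DNA-binding partner of YAP and TAZ, had an FPKM of 16.8 in shNC and 9.16 in shY2-2, a log2 ratio of -0.80. The other TEAD genes were not lower in shY2-2. TEAD2 was at 9.23 in shNC and 15.2 in shY2-2 (log2 ratio 0.67), and TEAD4 at 13.5 and 21.6 (log2 ratio 0.64). TEAD3 was at 2.73 and 3.23 (log2 ratio 0.18). TEAD1 and TEAD2 thus lay at opposite ends of the ratios of all genes kept, at percentiles 4.19 and 96.4. The summed level of the 4 TEAD genes was 42.2 in shNC and 49.2 in shY2-2, of which TEAD1 made up 39.7% and 18.6%. TEAD1 had the highest level of the 4 in shNC, and TEAD4 had it in shY2-2.

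Among the regulators, the angiomotin-like genes AMOTL2 and AMOTL1 encode proteins of cell junctions that bind YAP and keep it out of the nucleus. AMOTL2 (ENSG00000114019, chromosome 3, 134355874 to 134375479, - strand) had an FPKM of 19.5 in shNC and 8.64 in shY2-2, a log2 ratio of -1.09. AMOTL1 (ENSG00000166025, chromosome 11, 94706431 to 94876753, + strand) had an FPKM of 8.60 in shNC and 4.58 in shY2-2, a log2 ratio of -0.78. The third gene of the family, AMOT, was close to 0 in both libraries, at 0.0227 and 0.00826, so the family total of 28.1 in shNC and 13.2 in shY2-2 came almost wholly from these 2 genes. AMOTL2 made up 69.3% of it in shNC and 65.3% in shY2-2.

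LATS2, a kinase that phosphorylates YAP and TAZ (ENSG00000150457, chromosome 13, 20973032 to 21061547, - strand), had an FPKM of 4.42 in shNC and 2.43 in shY2-2, a log2 ratio of -0.66. Its paralog LATS1 was at 2.92 in shNC and 2.29 in shY2-2, a log2 ratio of -0.25. LATS2 therefore held 60.2% of the LATS level in shNC and 51.5% in shY2-2. AJUBA, a LIM domain protein that restrains the LATS kinases at cell junctions (ENSG00000129474, chromosome 14, 22971174 to 22982642, - strand), had an FPKM of 9.60 in shNC and 5.33 in shY2-2, a log2 ratio of -0.74. These 4 regulators, 3 of them inhibitors of YAP and TAZ and AJUBA a restraint on LATS, stood at 44.3% to 55.5% of their shNC levels.

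The secreted matrix proteins CYR61 and CTGF and the ankyrin-repeat protein ANKRD1 are the usual readouts of YAP-TEAD activity. CYR61 (ENSG00000142871, chromosome 1, 85580761 to 85583962, + strand) had an FPKM of 22.3 in shNC and 7.76 in shY2-2, and its log2 ratio of -1.41 was the lowest of the 10 genes, at percentile 0.493 of all genes kept. CTGF (ENSG00000118523, chromosome 6, 131948176 to 131951373, - strand) had an FPKM of 4.43 in shNC and 1.66 in shY2-2, a log2 ratio of -1.03 at percentile 1.94. ANKRD1 (ENSG00000148677, chromosome 10, 90912096 to 90921276, - strand) had an FPKM of 1.97 in shNC and 0.228 in shY2-2, a log2 ratio of -1.28 at percentile 0.787. ANKRD1 was the lowest of the 10 genes in both libraries and kept 11.5% of its shNC level, against 37.5% for CTGF and 34.7% for CYR61. The 1 added to each FPKM hides part of the ANKRD1 difference, whose plain ratio was 8.66-fold. From the FPKM steps and the length of the reference transcript, CTGF rested on about 214 fragments in shNC and 100 in shY2-2, LATS2 on about 507 and 349, and ANKRD1 on about 73 and 11, so ANKRD1 is the least precise of the 10. These fragment numbers are estimates, since the authors' transcript lengths can differ from the reference, as they do for ANKRD1. LATS2 was deposited with 2 transcripts and only 1 reference length was used for it, so its numbers are rougher.

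**Figure D1:**
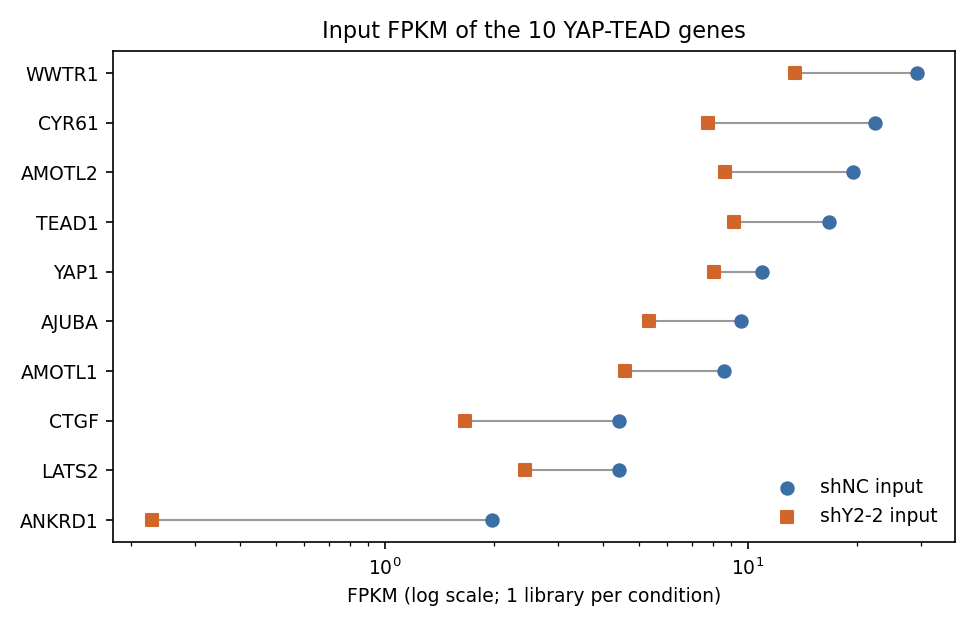
Input FPKM (log axis) of each of the 10 genes in the single shNC library (blue circles) and the single shY2-2 library (orange squares), with the genes ordered by their shNC level. All 10 squares lie to the left of their circles, with the widest gap for ANKRD1 (1.97 and 0.228) and the narrowest for YAP1 (10.9 and 8.07).

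The order of the levels was largely kept between the libraries. In shNC it ran from WWTR1 through CYR61, AMOTL2, TEAD1, YAP1, AJUBA, AMOTL1, CTGF and LATS2 to ANKRD1. In shY2-2, CYR61 stood at rank 5 in place of rank 2, below TEAD1, AMOTL2 and YAP1, and CTGF and LATS2 had changed places. TEAD1 stood at rank 2 in place of rank 4, above AMOTL2, which was at rank 3 in both libraries. With 1 library a condition, no neighbours in these orders can be told apart by replicate spread, and CTGF and LATS2 in shNC were nearly equal, at 4.43 and 4.42.

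A log2 ratio below -1 was reached by 5 of the 10 genes, CYR61, ANKRD1, AMOTL2, WWTR1 and CTGF, whereas 2.14% of all genes kept were below -1. None of the 10 was above 1, as were 0.986% of all genes. CTGF at -1.03 lay just inside this threshold and TEAD1 at -0.80 just outside it. At a smaller difference, over 1.5-fold lower, 9 of the 10 genes were counted, all but YAP1, against 8.92% of all genes kept. All 10 ratios were below 0, as were 49.7% of all ratios, and the median of the 10 was -0.92 beside 0.00 for all genes. Since the genes were chosen on these levels, nothing is read from these counts.

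**Figure D2:**
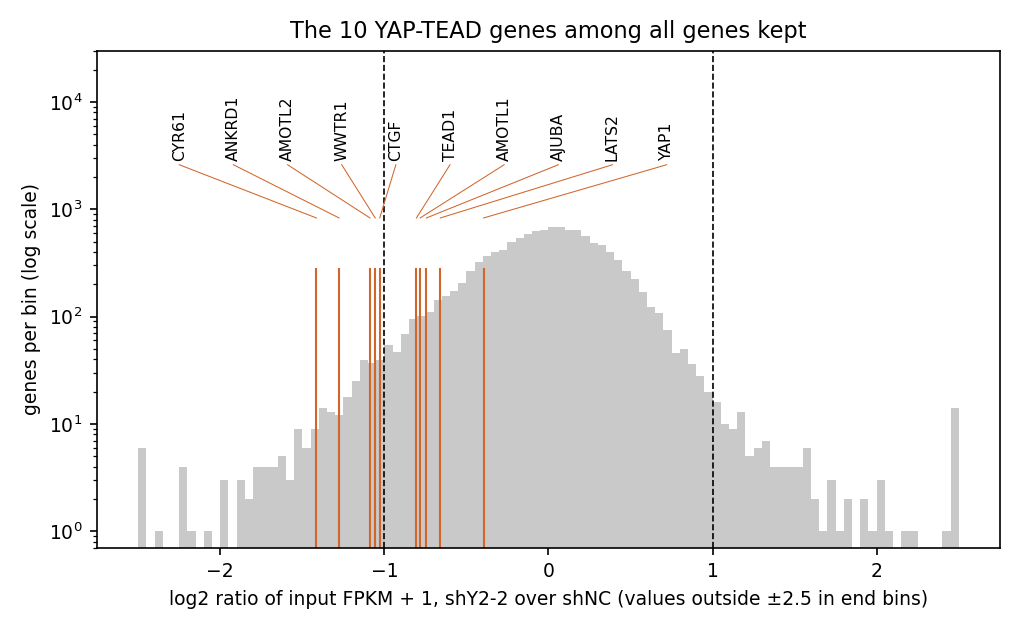
Histogram of the log2 ratio of input FPKM + 1 (shY2-2 over shNC, bins of 0.05, log count axis) for the 12268 genes kept, with an orange line at each of the 10 genes and dashed lines at -1 and 1. The 10 lines lie between CYR61 at -1.41 and YAP1 at -0.40, and 5 of them are left of -1.

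CYR61 had the lowest log2 ratio, and the 3 genes whose pair of levels was most like its own, by the distance between the pairs of log2(FPKM + 1), were TPR, AC245041.1 and CEACAM6. TPR, a protein of the nuclear pore, was at 21.3 in shNC and 7.19 in shY2-2 (distance 0.119). AC245041.1 was at 20.4 and 7.42 (distance 0.137), and CEACAM6, an adhesion protein of the epithelial surface, was at 24.4 and 8.44 (distance 0.162). The likeness rests on 2 libraries only.

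The rest of the pathway was described with lists written with earlier results of these data known. Of 28 core Hippo genes, 27 were kept, among them 7 of the 10 genes above. In this list 3 genes were below -1 and 0 above 1, and 9 were lower and 2 higher by over 1.5-fold. Over all genes kept these shares were 2.14%, 0.986%, 8.92% and 5.38%, in the same order. STK4 was the lowest of the core list. This gene of the kinase MST1 was at 7.36 in shNC and 2.01 in shY2-2, a log2 ratio of -1.48 at percentile 0.428, while STK3, the gene of MST2, was at 1.78 and 1.83 (log2 ratio 0.03). AMOTL2 and WWTR1 were the other two genes below -1. The highest were TEAD2, TEAD4 and LIMD1, a LIM domain relative of AJUBA at 7.69 in shNC and 11.1 in shY2-2 (log2 ratio 0.48). The median of the 27 was -0.36. Without the 7 genes already described, the other 20 had a median of -0.04, beside 0.00 for all genes kept, with 3 lower and 2 higher by over 1.5-fold.

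Of 22 genes of a published YAP/TAZ target signature, 20 were kept, 5 of them among the 10 genes above. F3 (0.883 in shNC and 0.895 in shY2-2) and RBMS3 (0.175 and 0.0147) did not reach an FPKM of 1. The median of the 20 was -0.77, 9 were below -1, 16 were lower and 0 higher by over 1.5-fold, and 17 of 20 ratios were below 0. Over all genes kept these shares were 2.14%, 8.92%, 5.38% and 49.7%, in the same order. The target list was also taken up with earlier results of these data known, so nothing is read from its counts. Its 15 kept genes outside the chosen 10 had a median of -0.68, with 5 below -1 and 11 lower by over 1.5-fold. Those 5 encode membrane and secreted proteins. MYOF (myoferlin, a protein of membrane repair) was at 91.2 in shNC and 33.6 in shY2-2, a log2 ratio of -1.41, and CRIM1, a transmembrane protein that binds BMPs, at 65.0 and 26.5 (-1.26). IGFBP3, which binds insulin-like growth factors, was at 61.8 and 26.7 (-1.18), and the ligand TGFB2 at 10.4 and 4.18 (-1.14). CCDC80, a protein of the extracellular matrix, was at 6.12 and 2.27 (-1.12). At the other end were FJX1 at 11.7 and 13.7 (0.20), ARHGEF17 at 3.23 and 3.82 (0.19), and the receptor tyrosine kinase AXL at 21.2 and 22.7 (0.09).

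**Figure D3:**
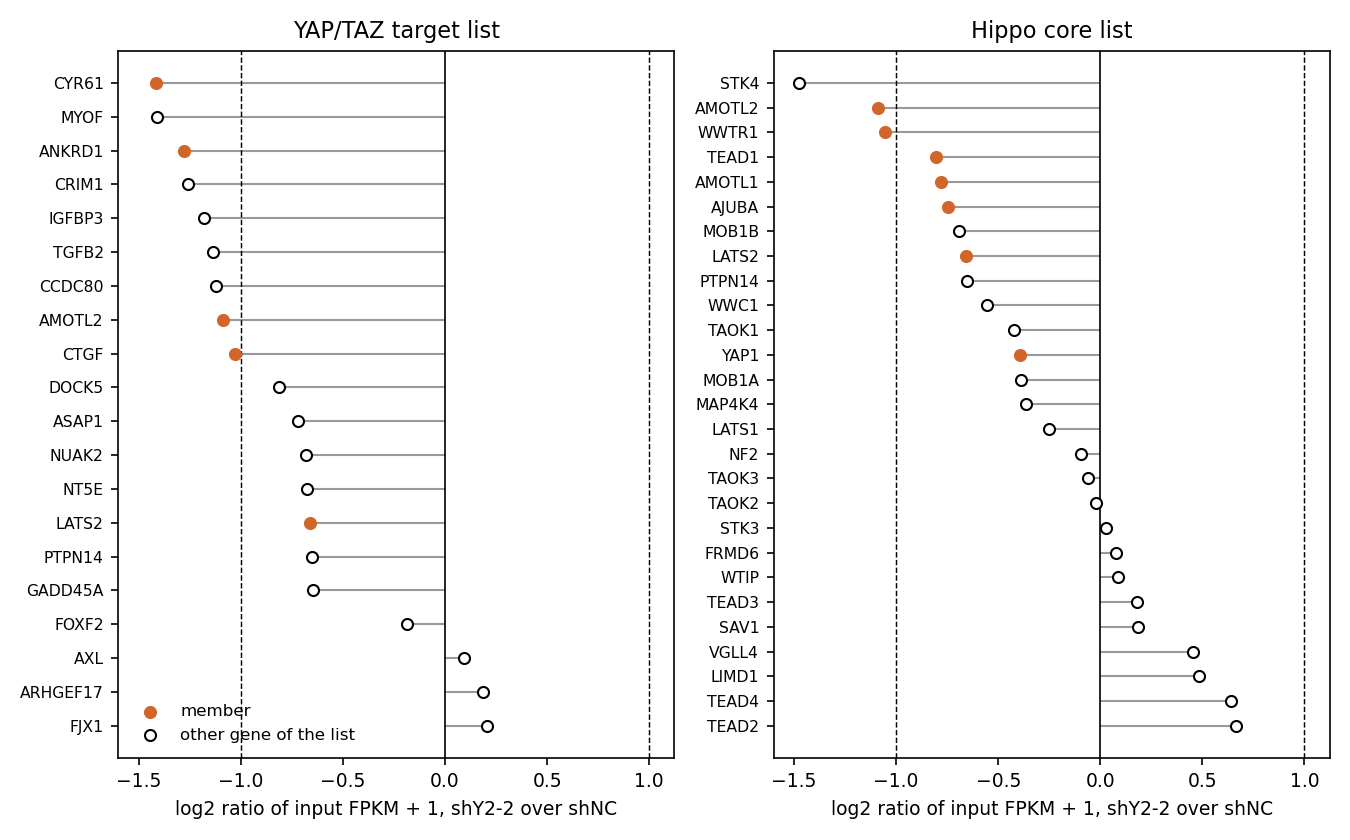
Log2 ratio of input FPKM + 1 (shY2-2 over shNC, 1 library each) for the genes kept of the YAP/TAZ target list (left, 20 genes) and of the Hippo core list (right, 27 genes), with the 10 chosen genes in orange and the others as open circles. In the target list 17 of 20 points lie below 0, and in the core list 18 of 27 do, with TEAD2 (0.67) and TEAD4 (0.64) highest.

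The m6A peaks were called by the authors in each condition from 1 IP and 1 input library, and they were not used to choose the 10 genes beyond the requirement of a shared gene name. Peaks were found in 9 of the 10 genes in both lists, beside 72.8% of all genes kept, and since the rule asked for a shared name in both lists nothing is read from this count. ANKRD1 had no peak in either list and was kept by its name in the expression table alone. The 9 genes held 28 of the 31057 distinct peaks of shNC and 25 of the 27344 of shY2-2. The false discovery rate (FDR) that the authors' lists give was at most 0.05 for 17 of the 28 and 14 of the 25. Over all peaks this held for 56.4% in shNC and 52.1% in shY2-2. Of the 28 peaks, 18 shared at least 1 exonic base with a shY2-2 peak, which is 64.3% beside 55.9% of all shNC peaks. Of the 25, 18 shared a base with a shNC peak, which is 72.0% beside 65.4% of all shY2-2 peaks. The shares of all peaks include genes named in 1 list only, which the rule leaves out. Nothing is therefore read from these differences either.

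These peaks lay mainly in the 3′ UTRs. In each list 20 of the peaks overlapped the 3′ UTR of the reference transcript. The authors' annotation also placed 20 of the 28 shNC and 20 of the 25 shY2-2 peaks there. It did so for 59.1% of all shNC and 59.5% of all shY2-2 peaks, so most peaks of either list lay there. The coding sequence was overlapped by 11 peaks in shNC and 7 in shY2-2, and the 5′ UTR by 4 and 3. The 3′ UTRs of TEAD1 (7515 nt) and AMOTL1 (5953 nt) are long, and the peaks there stood kilobases after the stop codon, whereas the CYR61 peak began in the coding sequence. GGAC, the core of the m6A consensus, stood in 13 of the 28 shNC peaks (46.4%, beside 61.0% of all shNC peaks) and in 9 of the 25 shY2-2 peaks (36.0%, beside 60.6%). Per kilobase of peak, the 10 genes had 4.00 and 4.09 copies of GGAC, and all peaks had 4.10 and 3.95.

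**Figure D4:**
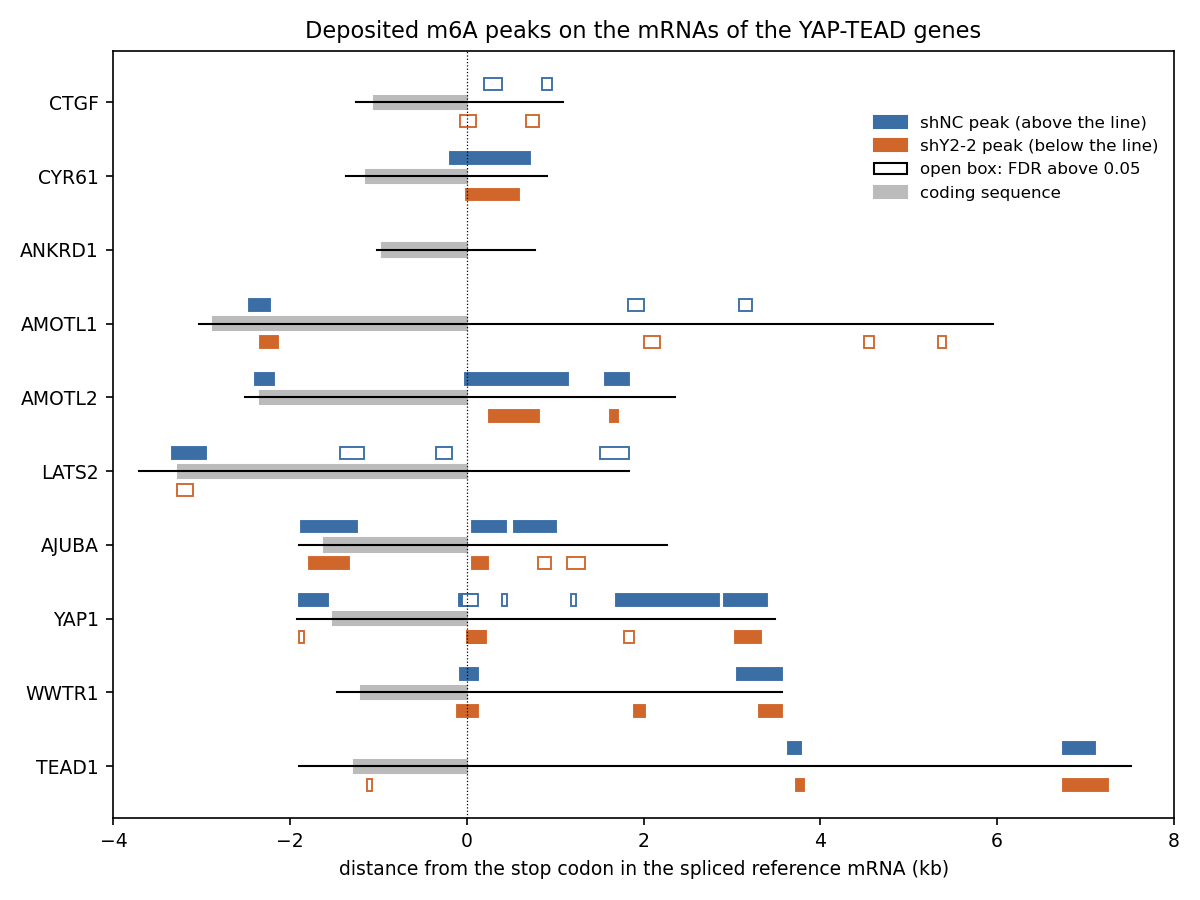
Position of every deposited peak on the spliced reference mRNA of the 10 genes, as distance from the end of the stop codon in kilobases, with shNC peaks (blue) above and shY2-2 peaks (orange) below each line, open boxes for an FDR above 0.05 and the coding sequence in grey. In each list 20 peaks overlap a 3′ UTR, ANKRD1 has none, and bases outside the reference mRNA are not drawn, which are all of 1 shNC peak of YAP1 and parts of 3 others, in AMOTL2, LATS2 and TEAD1.

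To show what the shared peaks hold, a site was taken for each gene from the peak pair of highest mean fold enrichment that held a searched motif, nearest to the middle of the bases common to both lists. On the strand of the mRNA, GGACT was searched first and its core GGAC next. Where both were lacking, the form GAACT was taken, or else the form AGACT, or else the form AAACT. Sequences are of GRCh38, written as DNA, 25 nt each, with the motif in capitals and its A at the centre. They are candidate sites, since m6A-seq does not resolve single bases, and none is shown for WWTR1, CTGF or ANKRD1. ANKRD1 had no peak, and no CTGF peak was shared by the lists. WWTR1 did have shared peaks, but none of them held GGAC.
CYR61, 3′ UTR, 101 nt after the stop codon, chr1:85583131-85583155, + strand: gtgggtgatgGGACTcattgtagaa
AMOTL2, 3′ UTR, 541 nt after the stop codon, chr3:134357152-134357176, - strand: aattttttggGGACTattaagggtg
LATS2, 5′ UTR, chr13:21046021-21046045, - strand: aaaggaaactGGACTaacaatgagg
AJUBA, base 88 of the coding sequence, chr14:22982167-22982191, - strand: gggtctgacgGGACccccgggccgg
AMOTL1, base 561 of the coding sequence, chr11:94799739-94799763, + strand: gaacaacgagGAACTgcccacttac
YAP1, 3′ UTR, 3042 nt after the stop codon, chr11:102232970-102232994, + strand: catggcagaaAGACTgaaaaataac
TEAD1, 3′ UTR, 7065 nt after the stop codon, chr11:12944275-12944299, + strand: ctatttgcagAAACTttcaaaaggc

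Among the coactivators and TEAD1, the strongest peaks sat far into the 3′ UTR. WWTR1 had 2 peaks in shNC and 3 in shY2-2. The one that ends at the last base of the mRNA had a fold enrichment (IP over input, a linear ratio from the authors) of 2.89 over 510 nt in shNC and 4.63 over 270 nt in shY2-2. The WWTR1 peak over the stop codon was nearly equal in the lists, at 1.47 and 1.49. TEAD1 had 2 peaks in shNC and 3 in shY2-2. The peak that begins 6752 nt after its stop codon was the second highest of all shNC peaks here, with a fold enrichment of 4.86 over 360 nt in shNC and 3.32 over 510 nt in shY2-2.

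YAP1 had 8 peaks in shNC and 5 in shY2-2, the most of the 10 genes. Its longest, from 1684 to 2853 nt after the stop codon, had a fold enrichment of 3.71 over 1170 nt in shNC, and the shY2-2 peak that met it had 1.35 over 121 nt, with an FDR of 0.384. The next YAP1 peak, at the 3′ end of the mRNA, went the other way, with 2.86 over 481 nt in shNC and 3.58 over 301 nt in shY2-2. In each list 1 YAP1 peak near the stop codon was listed among the peaks of genes on the - strand (fold enrichment 2.90 in shNC and 1.52 in shY2-2). The shNC one begins at base 102229851, where the 3′ end of the - strand lncRNA ENSG00000254422 lies, which shares 628 exonic bases with YAP1. The lists give no strand of the peak itself, so whether these peaks belong to YAP1 or to the antisense RNA cannot be told apart, and without them YAP1 had 7 and 4 peaks.

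Among the regulators, AJUBA carried the highest fold enrichment of the 10 genes in both lists. Its peak around the start codon had a fold enrichment of 5.69 over 628 nt in shNC and 5.85 over 450 nt in shY2-2. The 3′ UTR peaks of AJUBA were lower, between 1.30 and 1.82 over both lists. AMOTL2 had a broad peak after the stop codon, at 1.86 over 1168 nt in shNC and 2.59 over 569 nt in shY2-2, and its shNC peak near the start codon (1.48) met no shY2-2 peak. AMOTL1 had a coding-sequence peak at 1.53 in shNC and 2.21 in shY2-2. LATS2 had 4 peaks in shNC and 1 in shY2-2, and the pair they share, over the start codon, was at 2.15 and 1.90. The shY2-2 peak of LATS2 had an FDR of 0.354.

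Among the targets, CYR61 had a single peak in each list, from the coding sequence into the 3′ UTR. Its fold enrichment was 2.94 over 899 nt in shNC and 4.22 over 600 nt in shY2-2, and GGAC stood in it 6 times in shNC and 5 times in shY2-2. CTGF, which encodes the closest relative of CYR61 among the 10, had 2 peaks in each list, none of which met a peak of the other list. None of these 4 CTGF peaks had an FDR of at most 0.05 and none held GGAC, and their fold enrichments ran from 1.65 to 2.78. CTGF was the lowest but one of the genes with peaks in shNC FPKM and the lowest in shY2-2 FPKM, and the part of its level in its peaks was not tested.

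In all, 16 peaks of the 10 genes in one list met a single peak of the other and were paired, of which the second AMOTL1 pair shares only 1 base. The fold enrichment was higher in shY2-2 in 11 of the 16 pairs, 68.8% beside 43.2% of the 12294 pairs of all genes. Some pairs were nearly equal. Pairs of WWTR1 (1.47 in shNC and 1.49 in shY2-2) and AJUBA (5.69 and 5.85) count as higher. A YAP1 pair (1.69 and 1.66) counts as lower. The median log2 ratio of fold enrichment was 0.07 in the 16 and -0.06 in all pairs. The peak was shorter in shY2-2 in 13 of the 16 pairs, whereas 53.6% of all pairs were. Together the peaks of the 10 genes covered 9999 nt in shNC and 5623 nt in shY2-2, with a median length of 270.5 and 181 nt beside 270 nt for all peaks of either list. The 814 pairs of other genes that were lower by over 1.5-fold had a median of 0.03, with 53.1% higher and 61.5% shorter in shY2-2. A lower input level leaves fewer fragments to call a peak from, and the part of the level in the lengths and fold enrichments was not tested. Paired peaks also differed in length, so their fold enrichments were taken over unlike stretches, and the part of that was not tested either.

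**Figure D5:**
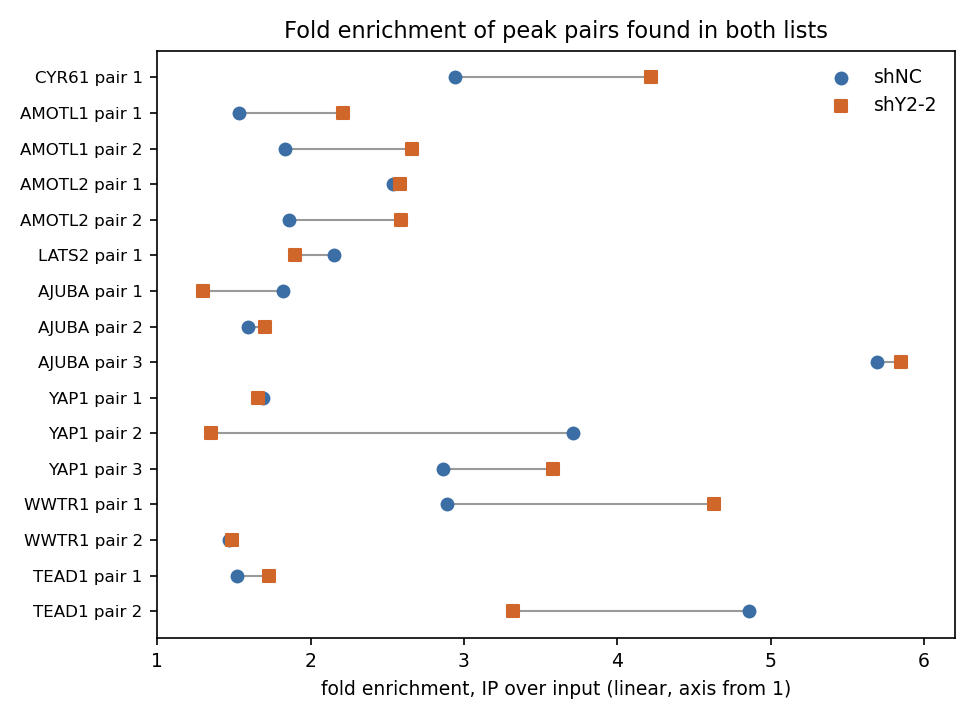
Fold enrichment of IP over input (linear axis that starts at 1) for the 16 peak pairs of the 10 genes found in both lists, with shNC as blue circles and shY2-2 as orange squares. The square is to the right of the circle in 11 pairs, and the widest gap is YAP1 pair 2, at 3.71 in shNC and 1.35 in shY2-2.

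Over all genes kept, those with peaks in both lists did not have lower ratios than the rest. The 8927 genes with a peak in both lists had a median log2 ratio of 0.02 with 1.80% below -1, and the other 3341 genes had -0.04 with 3.02% below -1. Of these 3341, 1586 had a peak in neither list. A peak in both lists needs one called in shY2-2, and a lower shY2-2 level leaves fewer fragments to call it from. The split can thus depend on the ratio itself, which was not tested, and nothing is read from it. Outside the 10 genes, 16 of 20 Hippo core genes and 15 of 15 YAP/TAZ target genes had a peak in both lists, beside the 72.8% of all genes kept. Several of the 10 genes share exonic bases with a neighbour in the reference annotation. On the same strand AMOTL2 shares 187 bases with RPL39P5 and AJUBA 50 with ENSG00000259132. On the opposite strand WWTR1 shares 756 bases with WWTR1-AS1, AMOTL1 496 with ENSG00000256469 and CTGF 278 with LINC01013. The libraries kept the strand, and whether FPKM was counted by strand is not given in the sources used here. These 6 levels, with YAP1, can therefore hold reads of the neighbour. The AJUBA peak around the start codon reaches into the span of ENSG00000259132. The AMOTL2 peak farthest into the 3′ UTR lies in the span of RPL39P5. Whether these peaks hold fragments of the neighbour was not tested.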

How the data were processed

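Fragmented poly(A) RNA of A549 cells was sequenced before (input) and after precipitation with an m6A antibody, in strand-specific libraries, 1 of each kind for shNC and for shY2-2. The authors trimmed reads with fastp, mapped them to GRCh38 with HISAT2 and computed the deposited FPKM per gene from the input libraries with StringTie. They called peaks with exomePeak, each IP library against its input, and annotated them with ChIPseeker. The deposited peak lists give a p-value (at most 0.049), log10 scores of p and FDR, and a fold enrichment, which is the linear ratio of IP to input. HOMER's motifs were not used here. HISAT2 ran with default parameters, and the versions of these tools are not given in the sources used here.

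From these files, log2((FPKM shY2-2 + 1)/(FPKM shNC + 1)) was computed for the 12268 genes that reached an FPKM of 1 in either condition's input. No count model was run, since FPKM values are not counts, and no gene was tested, since each condition has 1 library. All FPKM columns had a sample. Peaks listed more than once were counted once and compared by at least 1 shared exonic base, and located on the canonical transcripts of GENCODE release 44. The named genes were the 10 chosen, YTHDF2, the genes past the threshold and the 3 highest and 3 lowest of the Hippo core and YAP/TAZ target lists, the 5 highest and 5 lowest of the KEGG Hippo term that the deposited table gives (1 of these is not reported here), and the 3 nearest in level to CYR61. Markers are those of the marker lists, and SAV1 and the family members of the 10 genes were added with their values known. The 10 genes and all lists were chosen with earlier results of these data known.

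Alternatives were the pseudocount, the scaling, the FPKM filter, the fold threshold, the peak filter, the overlap and location rules and the motif, and, added after seeing the data, the counts without the 2 YAP1 peaks of uncertain strand. The steps were tested on simulated data. Python 3.11.15, NumPy 2.4.6, pandas 2.3.3, pysam 0.24.0 and matplotlib 3.10.9 were used.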

Additional observations from a re-analysis of the deposited data

How the results depend on the processing

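Of 165 recomputed values for 32 results, 118 stayed within 1.5 times of the reported value and on the same side of a log2 ratio of 1 or -1, 47 did not and 0 changed sign. With 1 library a condition there is no spread between replicates, no library could be left out, and the fragments behind a peak are unknown. Low genes depended on the pseudocount. With 5 in place of 1, the log2 ratios were -0.50 for CTGF, -0.42 for ANKRD1, -0.51 for AMOTL1, -0.84 for AMOTL2, -0.34 for LATS2 and -0.88 for WWTR1, the median of the 10 was -0.50 with 1 below -1, the Hippo core median was -0.23 with 0 below -1, and 4 target and 0 KEGG genes were below -1. With 0.1, ANKRD1 was at -2.66, 5 core genes were below -1, and 8 KEGG genes were below -1 and 2 above 1. With FPKM rescaled to the same fixed sum in each library, the median of all ratios moved by -0.07. This rescaling also changes the weight of the added 1. With it, ANKRD1 was at -2.31 and the median of the 10 was -1.05. There, 5 core and 7 KEGG genes were below -1, 1 KEGG gene was above 1, and the KEGG median was -0.11. With an FPKM of at least 5 in either library, CTGF, LATS2 and ANKRD1 dropped out, and 3 of the chosen genes left were below -1. The KEGG median was -0.094 with that filter, and without a filter it was -0.018. The shares of all genes past -1 or 1 at these other settings are not given here. Nothing is therefore read from the counts past -1 or 1 at them. At 1.5-fold, 9 of the 10, 9 core, 16 target and 13 KEGG genes were lower, and 2 core and 7 KEGG genes higher. Over all genes kept, 8.92% were lower and 5.38% higher by that measure. Peaks of the 10 genes numbered 17 in shNC and 14 in shY2-2 at an FDR of at most 0.05, and 8 and 7 at 0.001, where 5 of each met the other list and 5 genes had peaks in both. At a fold enrichment of at least 4 there were 2 and 3 peaks, of which 1 of each met the other list, in 1 gene. GGACT stood in 8 shNC and 3 shY2-2 peaks, and the looser DRACH consensus in all 28 and 25. The shares over all peaks are not given here for GGACT and DRACH. The peaks searched covered 9999 nt in shNC and 5623 nt in shY2-2, so nothing is read from these motif counts. With an overlap of at least 0.5 of the shorter peak 17 and 17 peaks met, and with the midpoint 12 and 17. Without the YAP1 peaks of uncertain strand 27 and 24 peaks were left, of which 17 and 17 met, in 9 genes. No paired analysis was possible because each condition has 1 library of each kind.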

Other observations

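The deposited table marks 148 genes with the KEGG term of Hippo signaling, of which 107 were kept, 6 of them among the 10 genes described above. Their median log2 ratio was -0.03, beside 0.00 for all genes kept, with 4 below -1 and 0 above 1, and 13 lower and 7 higher by over 1.5-fold. Over all genes kept these shares were 2.14%, 0.986%, 8.92% and 5.38%, in the same order. The lowest were secreted ligands and members of the pathway itself. TGFB2 was at -1.14 and BMP4, a bone morphogenetic protein, was at 5.35 FPKM in shNC and 1.90 in shY2-2, a log2 ratio of -1.13, followed by WWTR1 and CTGF. The highest were FZD9, a Wnt receptor, at 0.496 and 1.65 (0.82), and BIRC5, the inhibitor of apoptosis survivin, at 6.57 and 12.2 (0.80). TCF7L1, a transcription factor of Wnt signaling, was at 1.44 and 3.14 (0.76), and TGFBR1, a receptor for TGF-beta ligands, at 2.07 and 4.01 (0.71), followed by TEAD2. Of the 107 genes, 95 had a peak in both lists, beside 72.8% of all genes kept. Without the chosen genes, the other 101 had a median of -0.02, with 2 below -1.

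Among the genes around the LATS kinases, the adaptor gene MOB1A was at 24.5 FPKM in shNC and 18.5 in shY2-2 (log2 ratio -0.39), and its relative MOB1B was at 1.44 and 0.512 (-0.69). The summed level of STK4 and STK3 was 9.14 in shNC and 3.84 in shY2-2, of which STK4 made up 80.5% and 52.2%. SAV1, the scaffold that joins these kinases to LATS, was at 3.39 in shNC and 3.98 in shY2-2 (0.18).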
